A study of Mus with 2 samples.

Results

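Dividing nephron progenitors are the Six2-positive cells of the newborn kidney whose RNA holds markers of the cell cycle. They were chosen by their UMI counts in 2 single-cell libraries, as barcodes with at least 1 Six2 UMI (unique molecular identifier, a tag that marks 1 captured RNA molecule), at least 2 UMIs of Mki67 and at least 2 UMIs of Top2a. Barcodes with any UMI of the endothelial gene Pecam1 or more than 1 UMI of the stromal collagen gene Col3a1 were left out. The rule found 321 barcodes in replicate 1 and 239 in replicate 2, 560 of the 11369 barcodes that held at least 2000 UMIs and at most 10% mitochondrial UMIs. They were 5.16% of the kept barcodes of replicate 1 and 4.64% of those of replicate 2. They were compared within each library with non-dividing progenitors, which held a Six2 UMI but none of Mki67 or Top2a under the same limits on Pecam1 and Col3a1 (577 and 670 barcodes). A further set of 285 and 246 Six2-positive barcodes lay between these definitions and entered neither.

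The study removed Rbpj, the transcription factor of the Notch pathway, from the renal interstitium of the mouse with Foxd1Cre, and profiled kidneys at P0, the day of birth, on the 10x Chromium platform, which reads the 3' ends of transcripts. Both libraries came from mutants, Rbpj c/- ; Foxd1cre/+, in which every cell carries 1 conditional and 1 null allele before Cre acts. The design also has 2 controls, Rbpj c/+ ; Foxd1cre/+, not analysed here, and mutant and control are therefore not compared. Cre is driven by Foxd1, a gene of stromal progenitors, and nephron progenitors are not its intended target. The labels do not say whether the libraries came from separate animals. Library is a block in the model, so p-values measure only how far differences between sets of barcodes vary between these 2 libraries.

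Nephron progenitors form a cap around the tips of the branching ureteric bud, where Six2 holds them in an undifferentiated state. Cited1 marks the self-renewing part of the cap. Wnt signals from the bud move cells from the cap into pretubular aggregates and renal vesicles, which switch on Wnt4, Lhx1, Pax8, Jag1 and Fgf8 and go on to build the nephron, with Notch signalling taking part in that step. Progenitors must both divide and differentiate until nephron formation stops shortly after birth in the mouse. Mki67 is made by cycling cells and is absent from resting ones, and Top2a, a topoisomerase that untangles sister chromatids, peaks from late S phase to mitosis.

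The labelled cell type was checked first. Members held a median of 5 Six2 UMIs in replicate 1 and 4 in replicate 2, and 70.7% and 64.9% of them held at least 3. Six2 (chromosome 17, 85662736-85688254, mm10) stood at 204 and 213 CPM (counts of a gene per 1000000 UMIs of the set) in members. A share of 20.2% and 22.2% of members rested on a single Six2 UMI. Six2 UMIs were also found in 2.25% and 3.50% of immune barcodes, which should lack the gene, at a median depth of 9146.5 and 8903 UMIs, and in 5.43% and 3.59% of endothelial barcodes, against 21.1% and 24.0% of all kept barcodes. Mki67 (chromosome 7, 135689784-135716450) stood at 469 and 512 CPM in members, with a median of 22 and 21 UMIs per barcode, and Top2a (chromosome 11, 98992947-99024199) at 635 and 667 CPM, with medians of 31 and 29. All 3 marker genes were thus present in both libraries, as the rule requires, and these values are a description only.

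Some barcodes sat at the edge of the rule. With exactly 2 UMIs of Mki67 or of Top2a there were 21 and 19 members, 2 in each library with exactly 2 of both. Just outside lay 70 and 52 barcodes with at least 1 UMI of both genes, 15 and 10 of them with exactly 1 of each. Over the mitosis list without those 2 genes, the members at the edge held 24.7 and 21.1 UMIs per 10000 and the barcodes just outside 19.6 and 13.6, while all members held 49.7 and 49.9.

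Members were much deeper than the cells they were compared with. Their median was 39371 UMIs in replicate 1 and 30270 in replicate 2, against 13743 and 13269 in non-dividing progenitors. Barcodes over 40000 UMIs made up 48.6% and 39.7% of members and 4.85% and 3.13% of non-dividing progenitors, and they held 79.8% and 71.3% of the members' UMIs. The share of all Six2-positive barcodes within the limits that were members was 2.38% and 1.65% between 2000 and 10000 UMIs and reached 71.2% and 68.3% above 40000. A deeper barcode has more chance of holding 2 UMIs of each gene, a dividing cell holds more RNA, and 2 cells in 1 droplet give more UMIs; these cannot be told apart from depth alone. A doublet score (Scrublet, with the share to remove set by the number of barcodes, at 4.98% and 4.12%) marked 27 members (8.41%) in replicate 1 and 12 (5.02%) in replicate 2, against 11 (1.91%) and 3 (0.448%) non-dividing progenitors. The score's automatic threshold marked only 3 and 1 barcodes of all, so it did not separate doublets on its own. No member's barcode sequence occurred in both libraries, and 6 of all kept barcodes did. Because of the gap in depth, key values below are also given after each barcode was thinned at random to 10000 UMIs, which left out 3 and 2 members and 96 and 96 non-dividing progenitors that were shallower.

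**Figure D1:**
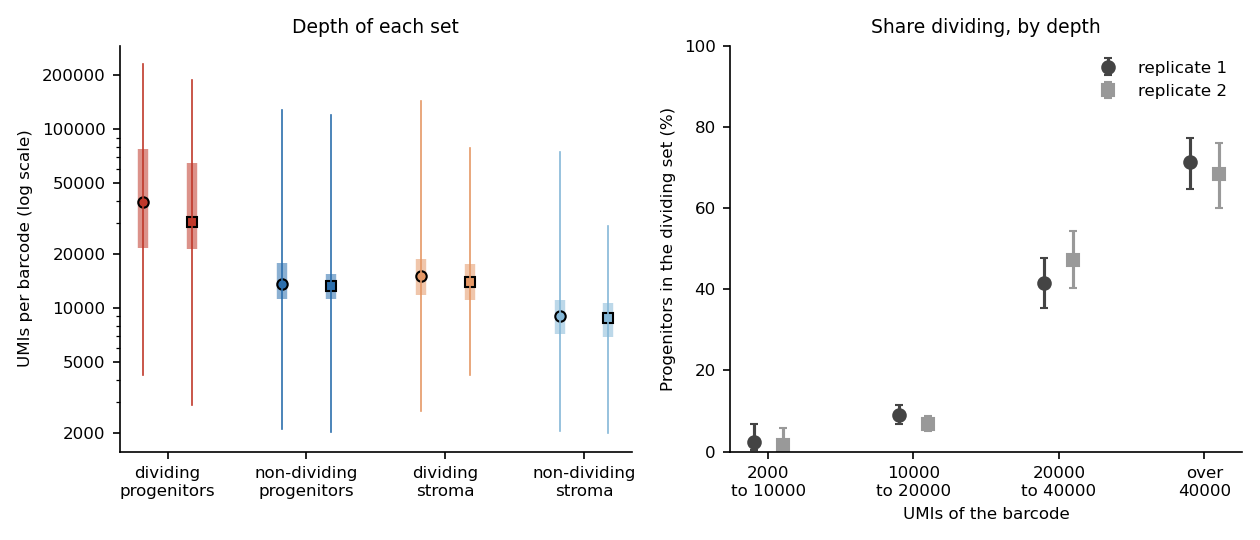
Left, UMIs per barcode (log axis) for the 4 sets of barcodes in each library, with the median as a point (circle, replicate 1; square, replicate 2), the quartiles as a thick bar and the range as a thin line. Right, percent of Six2-positive barcodes within the limits that were dividing, by depth, with exact 95% binomial intervals; the share went from 2.38% and 1.65% in the shallowest to 71.2% and 68.3% in the deepest barcodes.

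Cell cycle genes describe what the rule selected, so their change is not a finding. Genes are called changed here at an adjusted p under 0.05 in edgeR's quasi-likelihood test on UMIs summed per library and set, with Benjamini-Hochberg adjustment over 13959 genes. By that criterion 24.5% of all genes tested differed between members and non-dividing progenitors, 13.4% higher and 11.0% lower in members. With sets chosen and counted at 10000 UMIs (the thinned sets), 1060 genes were higher and 573 lower, in place of 1872 and 1541. Of the 33 mitosis genes other than Mki67 and Top2a, 32 were higher, with a median log2 fold change of 4.94, and of 28 genes of S phase 26 were higher, with a median of 1.24. Nusap1, which bundles spindle microtubules, stood at 239 and 228 CPM in members and 3.31 and 1.82 CPM in non-dividing cells. Prc1, which organises the spindle midzone, stood at 199 and 217 CPM against 3.01 and 2.01. The kinase gene Bub1 of the spindle checkpoint had 1788 UMIs in members and 15 in non-dividing progenitors, a ratio of CPM of 80.3 (95% counting interval 48.5 to 144). Among S-phase genes, Rrm2, which makes deoxynucleotides, stood at 64.9 and 71.5 CPM against 3.61 and 4.02, and Clspn, a replication checkpoint adaptor, at 67.0 and 74.1 against 9.22 and 8.71. The largest differences over all genes with at least 20 CPM in either set were of the same kind, with Cep55 of the abscission machinery at a ratio of 136 (53.1 to 502), the DNA glycosylase gene Neil3 and Depdc1a both at 128, and Esco2, Aspm, Fam64a and Hmmr at log2 fold changes of 6.83, 6.81, 6.55 and 6.41.

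Members differed among themselves in where they stood in the cycle. UMIs of the mitosis list had a median of 47.9 per 10000 in replicate 1, with 11.1 at the 5th and 155 at the 95th percentile, and 54.7 (11.2 to 157) in replicate 2. UMIs of the S-phase list had medians of 16.1 (5.69 to 52.9) and 17.5 (5.51 to 52.6), and those of replication-dependent histone genes 28.4 (5.33 to 175) and 50.7 (5.89 to 217). The 3 measures thus varied widely among members of each library. Non-dividing progenitors had medians of 2.13 and 1.74 for mitosis, 9.20 and 8.41 for S phase and 8.14 and 9.55 for histones. Histone UMIs are limited by a 3' method that primes on poly(A) tails, which most replication-dependent histone transcripts lack.

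A minority of members, 65 (20.2%) in replicate 1 and 57 (23.8%) in replicate 2, held more S-phase than mitosis UMIs, a split that used those lists and is therefore descriptive. It has no clean edge: 15 and 8 of these barcodes, and 13 and 5 of the others, had 2 totals within 10% of each other. In the S-phase-leading members the helicase subunit gene Mcm6 stood at 186 and 171 CPM against 75.5 and 74.3 in the other members, and Ccne2, a cyclin of S-phase entry, at 51.4 and 39.5 against 11.7 and 10.3. Ccnb1, the mitotic cyclin, was at 35.8 and 21.2 CPM against 130 and 138. Of genes that the split did not use, Ccnd1, the D-type cyclin of G1, stood at 894 and 633 CPM in S-phase-leading members and 520 and 501 in the others, and Lhx1, a transcription factor of the renal vesicle, at 452 and 469 against 307 and 306. Both genes were higher in S-phase-leading members of each library. Cited1 differed in direction between libraries, at 260 against 332 CPM in replicate 1 and 388 against 331 in replicate 2, and so did Wnt4, at 546 against 483 and 295 against 302.

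Genes of the undifferentiated cap fell more often than they rose in dividing progenitors. Of 20 cap genes, 11 fell and 2 rose, with a median log2 fold change of -0.37 beside -0.02 over all genes tested; without Six2, which the rule used, 10 of 19 fell. In the thinned sets 7 of 19 tested fell and 1 rose, and with DESeq2 8 of 20 fell. Over all genes 13.4% rose and 11.0% fell at full depth, 9.30% and 5.03% in the thinned sets and 7.62% and 5.44% with DESeq2. The list also fell more often than it rose in dividing stroma, as given below. Cited1, a transcriptional co-regulator of the self-renewing cap (chromosome X, 102247378-102252181), stood at 320 and 346 CPM in members and 547 and 622 CPM in non-dividing progenitors. Both members' values lay below both non-dividing values, and the log2 fold change was -0.88 ± 0.10 (SE; edgeR's quasi-likelihood test, adjusted p = 1.1e-04). At 10000 UMIs per barcode, with sets chosen at full depth, Cited1 was found in 56.3% and 53.6% of members and 71.3% and 80.0% of non-dividing progenitors, against 1.92% and 3.23% of immune barcodes. With the rule applied to the thinned counts 63.6% and 62.8% of members held it. The call of Cited1 was lost with DESeq2 (log2 fold change -0.90, adjusted p = 0.078) and with a mitochondrial limit of 5% (-0.40, adjusted p = 0.052).

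Crym, a thyroid hormone-binding protein gene with strong expression in the cap, stood at 69.6 and 79.9 CPM in members and 152 and 185 CPM in non-dividing cells, a log2 fold change of -1.23 ± 0.07 (edgeR adjusted p = 5.2e-07). Robo2, the Slit receptor that helps to position the progenitors, stood at 188 and 203 CPM against 351 and 343, a log2 fold change of -0.90 ± 0.11 (edgeR adjusted p = 2.9e-04). For Crym and Robo2 the groups did not overlap, and both passed the threshold in each of the 17 alternative settings that carry a test. Meox1, a homeobox gene of the cap, stood at 15.1 and 27.7 CPM against 28.1 and 46.8, a log2 fold change of -0.89 ± 0.12 (edgeR adjusted p = 4.7e-04). It was lower in members of each library, but the highest member value nearly reached the lowest non-dividing one, and the call was lost without the library term in the model.

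Smaller falls were seen for the integrin gene Itga8 (log2 fold change -0.70), the cadherin gene Cdh11 (-0.56), the matrix proteoglycan gene Spock2 (-0.51) and Eya1, a transcriptional partner of Six2 (-0.50). Eya1 stood at 124 and 142 CPM against 171 and 187. With sets chosen and counted at 10000 UMIs, the changes of Eya1 (-0.21, edgeR adjusted p = 0.090) and Cdh11 (-0.19, edgeR adjusted p = 0.12) no longer passed the threshold. Pax2, needed at every step of nephron formation, rose at full depth, from 344 and 333 to 514 and 463 CPM (log2 fold change 0.46 ± 0.13), but not in the thinned sets (0.23, edgeR adjusted p = 0.052). The cap and kidney regulators Wt1 (265 and 381 against 325 and 313 CPM), Sall1 (154 and 161 against 119 and 133), Osr1 (52.6 and 56.9 against 66.5 and 67.3) and Hoxd11 (208 and 224 against 206 and 223) did not pass the test. Gdnf, the ligand by which the cap drives branching of the bud, stood at 19.3 and 15.9 CPM in members and 21.0 and 15.6 in non-dividing cells and did not pass it either.

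Genes of commitment to the nephron were higher in dividing progenitors. Of 15 such genes 12 rose and none fell, with a median log2 fold change of 1.68 beside -0.02 over all genes, of which 13.4% rose and 11.0% fell. Part of this list also rose in dividing stroma, as given below. Lhx1 (chromosome 11, 84517975-84525534) stood at 332 and 350 CPM in members and 27.4 and 29.5 CPM in non-dividing progenitors. The groups lay more than a factor of 10 apart in each library, and the log2 fold change was 3.52 ± 0.12 (edgeR adjusted p = 1.3e-08). At 10000 UMIs per barcode, with sets chosen at full depth, Lhx1 was found in 30.5% and 27.0% of members and 7.28% and 6.27% of non-dividing cells. With the rule applied to the thinned counts it was found in 15.3% and 13.9% of members. Immune barcodes, which should lack the gene, held it in 7.69% (exact 95% interval 3.38 to 14.6) and 8.06% (2.67 to 17.8) of cases at that depth, so the share in non-dividing cells was no higher than background. Free RNA in barcodes of at most 100 UMIs held Lhx1 at 109 and 115 CPM, above the level of non-dividing cells and below that of members. With sets chosen at 10000 UMIs the log2 fold change was 2.08. Most members thus held no Lhx1 UMI at that depth.

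Wnt4, the signal by which the aggregate condenses into an epithelium (chromosome 4, 137277635-137299501), stood at 494 and 300 CPM in members against 160 and 132, a log2 fold change of 1.38 ± 0.26 (edgeR adjusted p = 0.0041). The groups did not overlap, and the member level of Wnt4 was higher in replicate 1 than in replicate 2. Pax8, a paired-box partner of Pax2, stood at 144 and 150 CPM against 46.8 and 40.8 (log2 fold change 1.68 ± 0.12), and Jag1, the Notch ligand of the renal vesicle, at 60.5 and 59.9 against 13.8 and 11.2 (2.20 ± 0.11). Free RNA held Wnt4 at 132 and 114 CPM, Pax8 at 58.8 and 67.5 and Jag1 at 63.1 and 56.7, so that Jag1 was about as high there as in members; the part of free RNA in these changes was not tested. Jag1, Pax8, Wnt4 and Lhx1 passed the threshold in all 17 alternatives that carry a test, as did the ligand gene Dll1, the homeobox gene Emx2 and Ccnd1.

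Other members of this list also rose at full depth, and some did not pass at equal depth. Lef1, a transcription factor that carries out Wnt signals, stood at 23.3 and 27.5 CPM against 10.0 and 8.24, a log2 fold change of 1.40 ± 0.18 (edgeR adjusted p = 3.0e-04), and of 1.41 in the thinned sets (edgeR adjusted p = 0.0017). Pou3f3, a regulator of the distal nephron, stood at 45.8 and 47.8 CPM against 15.7 and 7.28 (2.0 ± 0.22). In the thinned sets Pou3f3 (0.59, edgeR adjusted p = 0.38) did not pass the threshold. Fgf8, a survival factor of the aggregate, was at 65.5 and 57.3 CPM against 19.3 and 24.2, with a log2 fold change of 1.43 at full depth and 0.55 in the thinned sets (edgeR adjusted p = 0.074), and it turned to -0.48 in Cited1-positive barcodes of 10000 to 40000 UMIs (edgeR adjusted p = 0.19). In all, 8 of the 15 genes passed in the thinned sets, 11 in barcodes of 10000 to 40000 UMIs and 13 with at least 3 Six2 UMIs asked of every progenitor. All of these were rises, and over all genes 9.30%, 12.0% and 12.0% rose in these settings. The cadherin genes Cdh4 and Cdh6 did not pass at full depth.

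**Figure D2:**
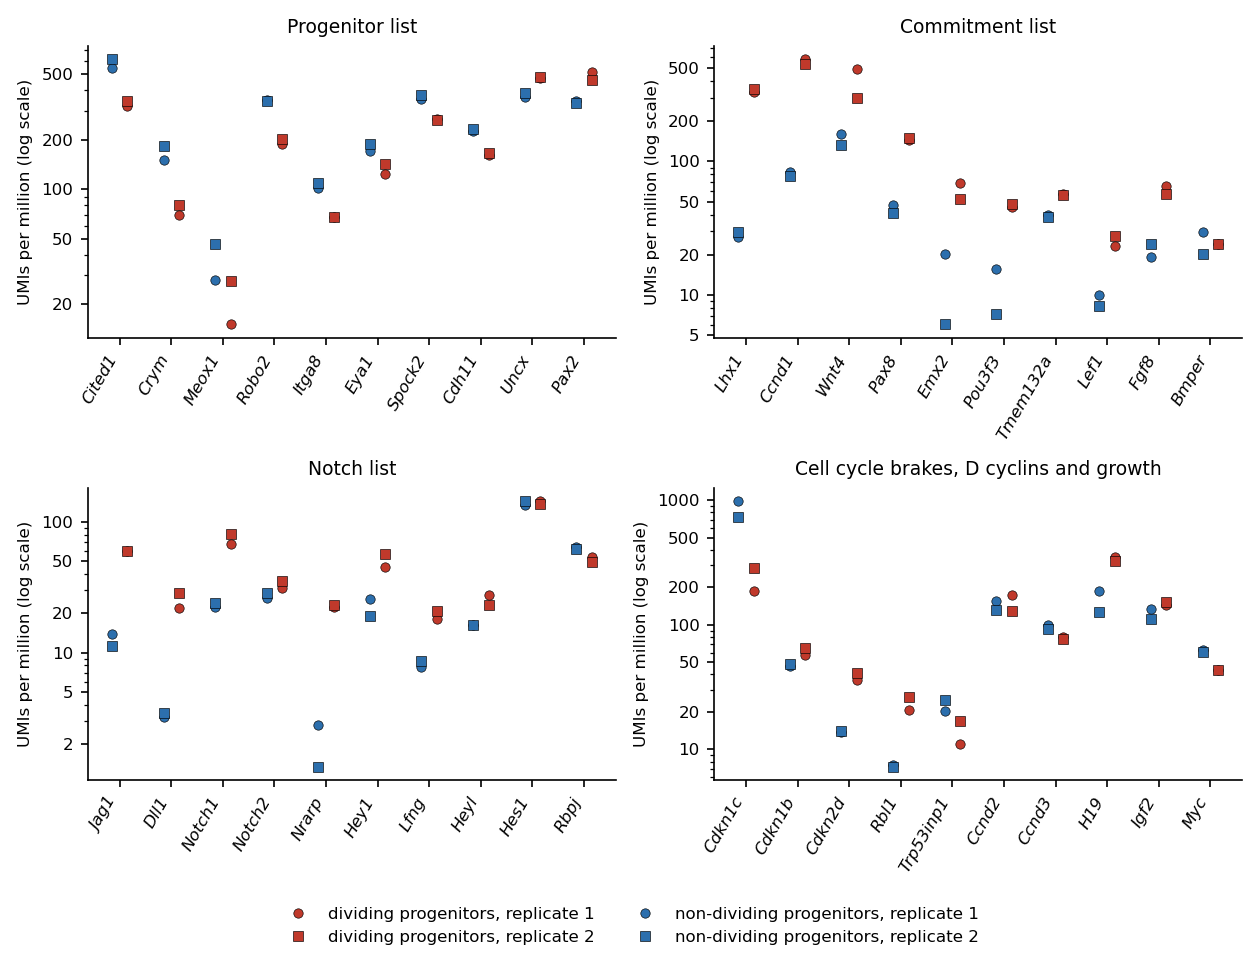
CPM (log axis) of 40 genes in dividing (red) and non-dividing (blue) progenitors, 1 point per library (circle, replicate 1; square, replicate 2), in 4 panels for cap genes, commitment genes, Notch genes and cell cycle brakes, D cyclins and growth genes. Lhx1 stood at 332 and 350 in members and 27.4 and 29.5 in non-dividing cells, while Cited1 stood at 320 and 346 against 547 and 622.

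The share of progenitors in the dividing set was also set against these markers per cell. Over all Six2-positive barcodes within the limits the share was 27.1% (exact 95% interval 24.6 to 29.8) in replicate 1 and 20.7% (18.4 to 23.1) in replicate 2. At 10000 UMIs per barcode, with the rule applied to the thinned counts, it was 22.8% (20.1 to 25.7) and 15% (12.7 to 17.5). These intervals cover counting error only, and the library with the larger share also had the deeper members.

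These markers have a background in free RNA. At 10000 UMIs, 72.9% and 78.0% of Six2-positive barcodes held Cited1 and 56.2% and 47.5% a UMI of Wnt4, Lhx1, Pax8 or Jag1, against 1.92% and 3.23%, and 22.1% and 16.1%, of immune barcodes (median depth before thinning 14517 and 14483 UMIs). Wnt4 was held by 40.9% and 32.5% of progenitors and 4.81% and 4.84% of immune barcodes, and Pax8 by 25.3% and 23.6% against 7.69% and 4.84%. Jag1 was at 11.4% and 7.66% of progenitors against 7.69% and 6.45% of immune barcodes. A commitment UMI in 1 barcode is therefore no proof of expression there, and the part of free RNA in the classes below was not tested.

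At equal depth, among barcodes with either kind of UMI, the share was lowest in those with Cited1 alone and highest in those with a commitment gene alone. Of barcodes with a Cited1 UMI and none of Wnt4, Lhx1, Pax8 or Jag1, 15.9% and 8.46% were dividing. With both kinds of UMI the share was 25% and 18.2%, and with a commitment UMI alone it was 32.0% and 27.1%. The order was the same in both libraries, and the intervals of the first and the last class did not overlap in either (12.3 to 19.98 against 25.8 to 38.6, and 6.06 to 11.4 against 20.5 to 34.4). The class with Cited1 alone did not overlap the class with both in either library (20.2 to 30.3 and 13.7 to 23.4 for the latter), while the class with both overlapped that with commitment alone in each. Within barcodes of 10000 to 40000 UMIs thinned to 10000, the 3 shares were 12.3%, 16.6% and 22.5% in replicate 1 and 6.57%, 13.9% and 22.8% in replicate 2. There the class with Cited1 alone overlapped the class with both in replicate 1 (8.91 to 16.3 against 12.0 to 22.1). Only 29 and 31 barcodes of all depths thinned to 10000 held neither kind of UMI. Of these 20.7% (7.99 to 39.7) and 16.1% (5.45 to 33.7) were dividing, with intervals that overlapped those of every other class.

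Without thinning this order was different in replicate 1, with 11.9%, 37.8% and 30.1% for the classes in the same sequence, and it was 7.08%, 28.8% and 33.5% in replicate 2. A deeper barcode is more likely to show both kinds of UMI. At full depth 60.1% and 52.7% of members held both a Cited1 and a commitment UMI. By Six2 level the thinned shares were close to flat, at 25.9% and 17.5% with 1 Six2 UMI, 21.1% and 13.3% with 2 to 4, and 22.7% and 17.1% with 5 or more, and their intervals overlapped. Barcodes with an Lhx1 UMI were dividing in 32.7% and 27.9% of cases at equal depth and those without in 21.6% and 13.9%; these intervals did not overlap in replicate 2 and did so in replicate 1. Only 10.7% and 7.44% of progenitors held an Lhx1 UMI at that depth, which in replicate 2 was no more than in immune barcodes.

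**Figure D3:**
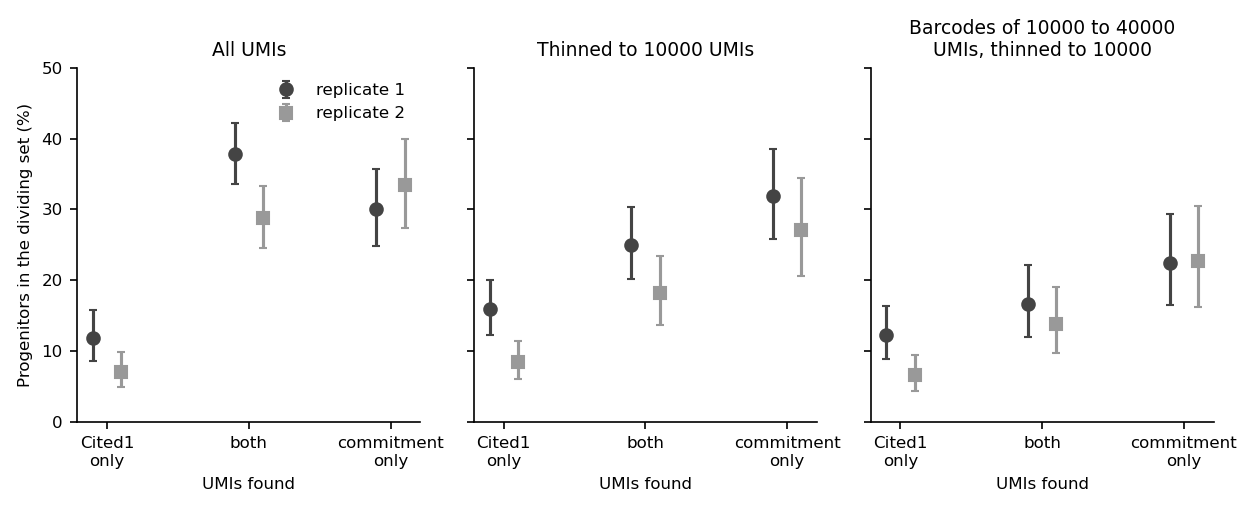
Percent of Six2-positive barcodes within the limits that were dividing (vertical axis), by whether the barcode held UMIs of Cited1 only, of both Cited1 and a commitment gene, or of a commitment gene only (Wnt4, Lhx1, Pax8, Jag1), with exact 95% binomial intervals for replicate 1 (circle) and replicate 2 (square). After thinning to 10000 UMIs the share went from 15.9% and 8.46% to 32.0% and 27.1% across the classes; with all UMIs the middle class was the highest in replicate 1.

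Notch genes rose more often than they fell in dividing progenitors. In this pathway a ligand such as Jag1 or Dll1 on one cell frees the inner part of a receptor on its neighbour, which joins Rbpj and switches on Hes, Hey and Nrarp genes. Of 13 genes of the pathway tested, 8 rose and 1 fell, with a median log2 fold change of 1.13. Over all genes 13.4% rose and 11.0% fell. Part of the list also rose in dividing stroma, as given below. Jag1 and Dll1 stand in both this list and that of commitment. Of the receptors, Notch1 stood at 67.7 and 81.8 CPM in members and 22.6 and 24.2 in non-dividing cells, with no overlap and a log2 fold change of 1.60 ± 0.09 (edgeR adjusted p = 9.7e-07), while Notch2 was at 31.2 and 35.1 against 26.5 and 28.7 and did not pass. Of the ligands, Dll1 stood at 22.2 and 28.4 CPM against 3.21 and 3.45, a log2 fold change of 2.84 ± 0.25 (edgeR adjusted p = 2.1e-05).

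Among the target genes, Nrarp, a feedback inhibitor of the receptor, stood at 22.3 and 23.1 CPM against 2.81 and 1.34, a log2 fold change of 3.39 ± 0.27 (edgeR adjusted p = 1.2e-05). Hes5, a repressor gene, had 290 UMIs in members and 4 in non-dividing progenitors, a ratio of 48.8 (18.9 to 180). Hey1 stood at 45.7 and 57.1 CPM against 25.8 and 19.2 (log2 fold change 1.13 ± 0.18). Hes1, the target with the most UMIs of the list, stood at 144 and 137 CPM against 136 and 145, with overlapping groups and no call. Lfng, which modifies Notch receptors with sugars, rose at full depth (1.17) but not in the thinned sets (0.15, edgeR adjusted p = 0.84), and Heyl likewise (0.58 and -0.11). The thinned sets kept 11 genes of the pathway in the test, of which 5 rose, with a median log2 fold change of 0.19. Over all genes 9.30% rose and 5.03% fell there, with a median of -0.015.

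Rbpj, the gene targeted by the study, was present in members. It stood at 53.6 and 49.2 CPM in members, 64.0 and 62.1 in non-dividing progenitors, 26.2 and 32.7 in dividing stroma and 30.4 and 27.7 in non-dividing stroma. A 3' tag lies outside most of a gene, and where the conditional part of Rbpj lies is not given in the sources used here, so these values check neither the deletion nor the genotype. The log2 fold change in progenitors was -0.35 ± 0.09 (edgeR adjusted p = 0.022), and this call held in only 7 of 17 alternatives.

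Genes that slow the cell cycle moved in both directions at full depth. Of 16 such genes 6 rose and 6 fell, with a median log2 fold change of -0.05. In the thinned sets 5 rose and 1 fell, and so it was in Cited1-positive barcodes of 10000 to 40000 UMIs. Over all genes 9.30% rose and 5.03% fell in the thinned sets and 9.19% and 6.97% in the Cited1-positive window, so that 1 fall in 16 lies near the share over all genes. Cdkn2d, an inhibitor of the D-cyclin kinases, stood at 36.0 and 40.9 CPM in members and 13.7 and 14.2 in non-dividing cells (log2 fold change 1.39), and Rbl1, a pocket protein related to the retinoblastoma protein, at 20.7 and 26.2 against 7.52 and 7.28 (1.59). Cdkn2c, another inhibitor of that class, had 140 UMIs in members and 3 in non-dividing progenitors, a ratio of 31.4 (10.5 to 154). These 3 genes were higher in members of each library, and all passed in every alternative with a test. Trp53inp1, a p53 target, stood at 11.0 and 17.0 CPM against 20.5 and 24.9 (log2 fold change -0.79) and also passed in all of them.

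Cdkn1c, the inhibitor p57 of cells leaving the cycle, stood at 188 and 289 CPM in members against 987 and 731, a log2 fold change of -1.95 (edgeR adjusted p = 2.9e-05). It is also a gene of podocytes, the filter cells of the glomerulus. The 5 non-dividing barcodes with the most Cdkn1c UMIs held 62.7% and 69.1% of them. Without progenitor barcodes rich in podocyte, ureteric, tubule, immune or erythroid genes the log2 fold change was -0.15 (edgeR adjusted p = 0.14), and in the thinned sets it was -0.41 (edgeR adjusted p = 0.19). With at least 3 Six2 UMIs asked of every progenitor it was -0.49 and still passed (edgeR adjusted p = 3.7e-04).

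Cyclins of the D class, which carry growth signals into the cycle, differed among themselves. Ccnd1 (chromosome 7, 144929931-144939831) stood at 586 and 537 CPM in members and 84.0 and 77.3 in non-dividing progenitors, with no overlap. Its log2 fold change was 2.74 ± 0.11 at full depth (edgeR adjusted p = 5.1e-08) and 1.49 in the thinned sets (edgeR adjusted p = 2.5e-09). At 10000 UMIs, with sets chosen at full depth, 45.6% and 44.3% of members and 31.0% and 27.9% of non-dividing cells held a Ccnd1 UMI. Free RNA held Ccnd1 at 257 and 232 CPM, above the level of non-dividing cells and below that of members. Ccnd2 stood at 175 and 130 CPM against 155 and 132, with overlapping groups and a log2 fold change of 0.01 (edgeR adjusted p = 0.96), but in the thinned sets it fell by 0.70 (edgeR adjusted p = 1.7e-05). Ccnd3 was at 79.6 and 77.7 CPM against 99.9 and 92.5 (-0.36, edgeR adjusted p = 0.0034), a call that was lost in the thinned sets. Of the 7 genes of this group 4 rose and 1 fell at full depth, 1 rose and 1 fell in the thinned sets, and 2 rose and 2 fell in barcodes of 10000 to 40000 UMIs. Over all genes 9.30% rose and 5.03% fell in the thinned sets and 12.0% and 10.6% in that window, and with 7 genes nothing is read from these counts.

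Of 22 growth and signalling genes tested 7 rose and 2 fell at full depth, with a median log2 fold change of 0.23. In the thinned sets 2 rose and 1 fell (median -0.08), where 14.3% of all genes were called. With DESeq2 it was also 2 and 1, where 13.1% of all genes were called, and in barcodes of 10000 to 40000 UMIs 3 rose and 5 fell, where 22.6% were. The counts in the thinned sets and with DESeq2 lie near the shares over all genes. The imprinted non-coding RNA H19 (chromosome 7, 142575530-142578146) stood at 353 and 327 CPM in members and 188 and 127 in non-dividing cells. The groups did not overlap, the log2 fold change was 1.06 (edgeR adjusted p = 2.1e-05), and it passed in all 17 alternatives. Its imprinted neighbour Igf2, a growth factor gene, stood at 145 and 152 CPM against 135 and 111 and did not pass the test (0.20, edgeR adjusted p = 0.081). Myc, a driver of cell growth, stood at 43.2 and 43.7 CPM in members and 63.5 and 60.2 in non-dividing cells, a log2 fold change of -0.58 (edgeR adjusted p = 4.0e-04); with a mitochondrial limit of 5% it was -0.27 (edgeR adjusted p = 0.27). Fgf20, a ligand that keeps progenitors in the cap, fell by 0.87 at full depth (edgeR adjusted p = 0.017) and did not pass in the thinned sets.

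Of 18 enzymes of glycolysis tested, 2 rose and 4 fell, with a median log2 fold change of -0.11. Over all genes 24.5% were called, 13.4% higher and 11.0% lower, and nothing particular to the list is read from its count. Aldoa, the aldolase gene, stood at 164 and 155 CPM in members and 245 and 216 in non-dividing progenitors, a log2 fold change of -0.59 (edgeR adjusted p = 2.1e-04) that passed in all 17 alternatives. Pdk1, a kinase that holds pyruvate out of the mitochondrion, fell by 0.69, and the hexokinase gene Hk1 by 0.48. The call of Pdk1 held in 16 of 17 alternatives and that of Hk1 in 11. Gapdh rose, at 1214 and 1129 CPM against 866 and 840 (0.39), and its call was lost in the thinned sets. Ldha, which makes lactate, stood at 223 and 187 CPM against 196 and 187, with groups that met, and did not pass.

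Genes that package and divide the chromosomes mostly rose, as did the cell cycle lists, with which they share much of their function. Of 24 chromatin and nuclear genes 21 rose and 1 fell, of 16 tubulin and cytoskeleton genes 11 rose and 1 fell, and of 16 genes of the DNA damage response 11 rose and 1 fell, with median log2 fold changes of 1.12, 0.93 and 1.46. Over all genes 13.4% rose and 11.0% fell. Hmgb2, a chromatin protein of cycling cells, reached 1770 and 1937 CPM in members against 209 and 194 (log2 fold change 3.13). The condensin subunit gene Ncapd2 changed by 3.10, and the histone variant gene H2afx by 2.86. The maintenance methyltransferase gene Dnmt1 rose by 1.29 while Dnmt3a, which sets new methylation, stood at 108 and 113 CPM against 104 and 103 and did not pass.

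Of the tubulin genes, Tuba1c changed by a log2 fold change of 3.0 and Tubb4b by 2.14, while Tuba1a stood at 210 and 199 CPM against 88.3 and 97.1 (1.08); near-identical tubulin genes can trade reads. Of the damage genes, Brca1 rose by 2.81 and Rad51ap1 by 2.97, both parts of homologous recombination, and Fanci had 183 UMIs in members and 3 in non-dividing cells (ratio 41.1, 13.8 to 201). In contrast the p53 target Mdm2 stood at 37.9 and 37.6 CPM against 40.6 and 38.5, and Bax at 175 and 174 against 158 and 154, and neither passed. Among 59 histone genes tested, 48 were higher and 2 lower in members.

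The lowest genes in members, of those with at least 20 CPM in either set, included neutrophil, podocyte and globin genes. The neutrophil granule gene Ngp had 4 UMIs in members and 418 in non-dividing progenitors, a ratio of 155 (60.2 to 572) with the latter higher, and BC100530 and Stfa1 followed at 79.6 (43.0 to 167) and 52.7 (30.5 to 99.7). S100a8 and S100a9 had log2 fold changes of -6.34 and -6.24. All but 2 of the Ngp UMIs of non-dividing progenitors lay in replicate 1, where a single barcode held 54.1% of them. S100a8 and S100a9 no longer passed without barcodes rich in other markers, where the other 3 were too low to be tested. Of podocyte genes, Thsd7a stood at 5.35 and 2.83 CPM in members against 58.4 and 25.9, and Col4a3 at 5.84 and 3.18 against 37.2 and 27.8. The stress gene Nupr1 (log2 fold change -3.25) and the globin gene Hba-a1 (-2.83; Hba-a1 and Hba-a2 are near-identical) were also among the lowest.

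Markers of other cell types moved with the contrast, and their part in the results above was tested only by leaving out the barcodes richest in them. The podocyte list summed to 167 and 342 CPM in members and 907 and 542 in non-dividing progenitors, and 7 of its 8 genes fell. The tubule list summed to 221 and 211 CPM against 468 and 406, the immune list to 13.1 and 5.41 against 42.9 and 33.7, and the erythroid list to 1272 and 361 against 5867 and 2551, with 3 of 8, 4 of 8 and 5 of 5 tested genes lower. The ureteric list was higher in members, at 380 and 371 CPM against 237 and 108, with 4 of 9 genes up. The stromal list summed to 123 and 169 CPM against 285 and 234, with 4 of 13 genes lower, and Foxd1 among them at 19.4 and 19.8 CPM against 42.7 and 36.8. The endothelial list summed to 27.5 and 27.0 CPM against 27.4 and 23.4, with Pecam1 at 0 by the rule and no gene of 7 called. Over all genes 13.4% rose and 11.0% fell.

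A barcode was counted as rich in other markers when podocyte, ureteric, tubule or immune genes took over 0.1% of its UMIs or erythroid genes over 1%. That held for 43 members (13.4%) in replicate 1 and 23 (9.62%) in replicate 2, and for 71 (12.3%) and 46 (6.87%) non-dividing progenitors. Without these barcodes 3669 genes were called in place of 3413, 15.5% of all genes higher and 11.6% lower. Of 19 tested cap genes 11 fell and 4 rose, and 14 of 15 commitment genes rose. Of podocyte genes 1 rose and none fell, and of 8 tested ureteric genes 1 rose and 1 fell. Of 7 ureteric genes tested in the thinned sets 1 fell and none rose, where 9.30% of all genes rose and 5.03% fell. Ret, the receptor gene of the ureteric tip, had 179 and 30 UMIs in members and 7 and 1 in non-dividing progenitors, and it was higher in each of the 10 alternatives that kept it in the test; without these barcodes it was too low to be tested. The log2 fold changes there were -0.84 for Cited1, 3.98 for Lhx1 and 2.98 for Ccnd1. Of 15 immediate early genes tested, which respond to cell handling among other signals, 3 fell and none rose in the full sets, while 2 rose and none fell without these barcodes and 4 rose and none fell with at least 3 Six2 UMIs. Over all genes 13.4% rose and 11.0% fell in the full sets, 15.5% rose without these barcodes and 12.0% with at least 3 Six2 UMIs, so the 2 rises without these barcodes lie near the share over all genes. The falls of Ier3 (-2.42), Atf3 (-3.44) and Junb (-0.56) were not seen without these barcodes, with -0.28, -0.21 and -0.01 and no call.

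The same contrast in stroma of the same libraries (at least 3 Col3a1 UMIs, no Six2; 221 and 199 dividing, 765 and 653 non-dividing barcodes) was set beside that in progenitors. A test of the difference between the progenitor and the stromal log2 fold changes in the same model called 8.65% of all genes, 3.71% with the higher and 4.94% with the lower value in progenitors. The balance depended on the sets: 518 genes had the higher and 690 the lower value at full depth, 255 and 100 in the thinned sets, 921 and 521 with at least 3 Six2 UMIs, and 1013 and 586 without barcodes rich in other markers. Of the 15 commitment genes 7 had the higher value in progenitors and none the lower, and in the thinned sets 3 had the higher, where 2.24% of all genes did. Within stroma 7 of the 15 rose and 3 fell in dividing cells, with a median log2 fold change of 1.06. Over all genes 15.4% rose and 12.9% fell there. Dll1 (2.59), Emx2 (2.10) and Jag1 (1.06) rose in stroma as well, and of these only Jag1 passed the test of the difference. Ccnd1 stood at 124 and 151 CPM in dividing and 152 and 177 in non-dividing stroma, so its log2 fold change was -0.27 there, which did not pass the test (edgeR adjusted p = 0.12), and 2.74 in progenitors, a difference of 3.0 ± 0.16 (edgeR adjusted p = 1.0e-05). Wnt4 stood at 38.7 and 60.5 CPM in dividing against 106 and 171 in non-dividing stroma, a difference of 2.90 ± 0.43 (edgeR adjusted p = 0.0035), and Lef1 differed by 2.21 ± 0.27 (edgeR adjusted p = 0.0012). The log2 fold changes of these 3 genes had opposite signs in the 2 lineages, with falls in stroma that passed the test for Wnt4 and Lef1 and not for Ccnd1. Lhx1 was higher in dividing cells of both, at 50.5 and 43.7 CPM in dividing against 11.6 and 6.50 in non-dividing stroma, with a difference of 1.18 ± 0.23 (edgeR adjusted p = 0.014) that passed in 12 of 17 alternatives. It was 0.54 in the thinned sets (edgeR adjusted p = 0.59) and turned to -0.70 at a mitochondrial limit of 5% (edgeR adjusted p = 0.45).

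Of the 22 growth genes 2 had the higher and 2 the lower value in progenitors in this test, and of the 13 Notch genes 3 had the higher and none the lower; in the thinned sets none of 11 Notch genes passed (edgeR; 3 did at an unadjusted p under 0.05), and 2 of 13 did with DESeq2 at full depth. Igf2 stood at 252 and 255 CPM in dividing and 606 and 572 in non-dividing stroma, a log2 fold change of -1.23 there and 0.20 in progenitors, and H19 changed by -0.77 in stroma and 1.06 in progenitors. The differences were 1.43 for Igf2 (edgeR adjusted p = 7.7e-05) and 1.83 for H19 (edgeR adjusted p = 5.7e-05). Notch1 (difference 1.03) and Jag1 (1.14) had the higher log2 fold change in progenitors, but in the thinned sets neither passed (0.39, edgeR adjusted p = 0.57, and 1.31, edgeR adjusted p = 0.083). Within stroma 5 of the 13 Notch genes rose and none fell in dividing cells, with a median log2 fold change of 0.57. Nrarp (2.45), Hes5 (2.71) and Dll1 (2.59) rose there too, from low levels, and none of them passed the test of the difference. Their means in dividing stroma were 7.75, 1.68 and 8.20 CPM. Ccnd2, at 348 and 258 CPM in dividing and 607 and 606 in non-dividing stroma, differed by 1.04 (edgeR adjusted p = 0.0025). Of cap genes 3 had the higher and 2 the lower value in progenitors. Within stroma 8 of the 20 cap genes fell and 3 rose in dividing cells. Their median log2 fold change was -0.40 there, beside -0.37 in progenitors. Crym was lower in dividing cells of both lineages (-1.23 in progenitors, -2.78 in stroma, where it stood at 2.29 and 2.26 against 14.8 and 16.8 CPM), with a difference of 1.55 that was lost with a mitochondrial limit of 5% (0.68, edgeR adjusted p = 0.61).

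The cell cycle lists went the other way, with smaller log2 fold changes in progenitors than in stroma. Of 28 S-phase genes 13 had the lower value in progenitors and none the higher, with a median difference of -0.54. Of 33 mitosis genes other than Mki67 and Top2a, 11 were lower and 1, the mitotic kinase gene Cdk1, higher (0.50; median of the list -0.76), of 24 chromatin genes 15 lower and none higher, and of 59 histone genes 34 lower and none higher (-1.90). Hmmr, a spindle protein gene, had log2 fold changes of 6.41 in progenitors and 8.55 in stroma, a difference of -2.14 at full depth and -0.50 in the thinned sets, where it did not pass (edgeR adjusted p = 0.77). Mki67 itself stood at 469 and 512 CPM in dividing progenitors and 889 and 972 CPM in dividing stroma, where the median barcode held 15111 and 14034 UMIs. The same minimum of 2 UMIs asks for a larger fraction of the RNA in a shallower cell; its part in the difference was not tested. In the thinned sets 5 S-phase, 5 mitosis and 2 chromatin genes had the lower value and 1 mitosis gene the higher, where 0.877% of all genes had the lower and 2.24% the higher.

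**Figure D4:**
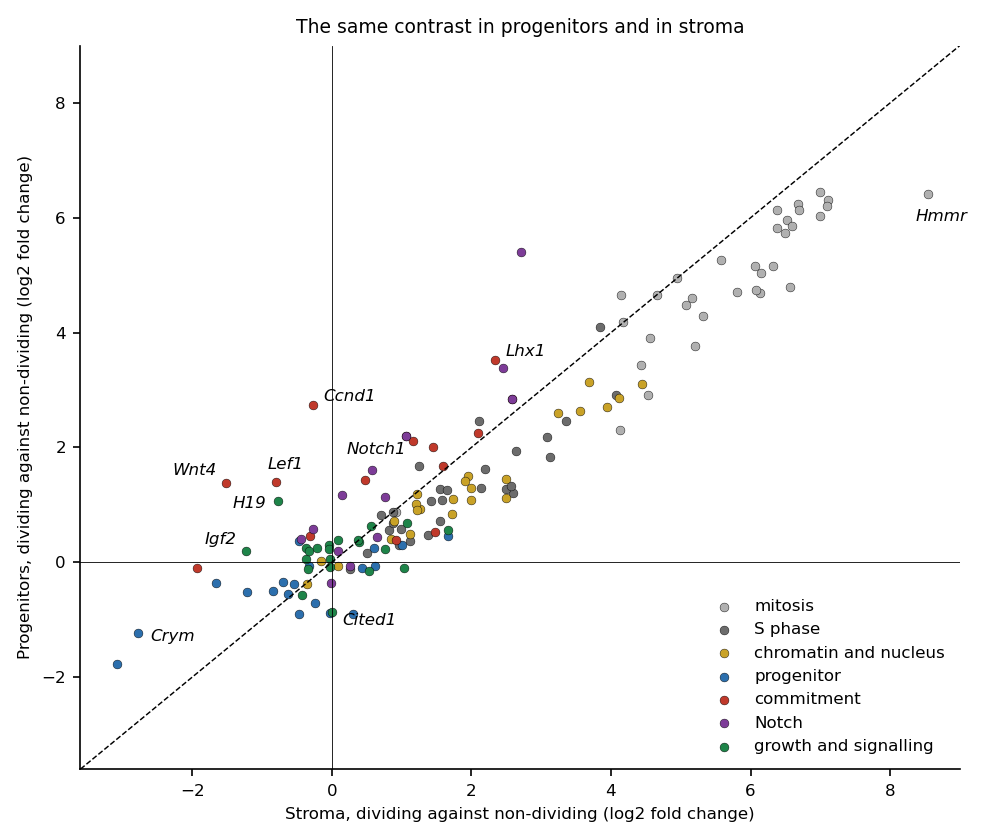
Log2 fold change of dividing against non-dividing cells in progenitors (vertical axis) and stroma (horizontal axis) for the tested genes of 7 lists, without Six2, Mki67 and Top2a; 1 point is 1 gene, and the dashed line marks equal change. Most mitosis genes lie below the line, and Ccnd1 (2.74 against -0.27), Wnt4, Lef1 and H19 lie above it, left of 0 in stroma and above 0 in progenitors.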

How the data were processed

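Newborn kidney cells of 2 mutant libraries were profiled on the 10x Chromium platform, and the deposited matrices hold UMI counts per gene and barcode. The submitters' processing notes name Cell Ranger 6.0.1 and mm10, and the matrices name Cell Ranger 4, per the file headers. The deposited counts cover 2720964 and 2654938 barcodes with 163405630 and 135436576 UMIs, of which 83.8% and 82.0% lay in the 6910 and 5917 barcodes of at least 2000 UMIs. The mitochondrial limit removed 690 and 768 of these. Barcodes of at most 100 UMIs, a measure of free RNA, held Six2 at 49.4 and 48.4 CPM, Mki67 at 147 and 130, Top2a at 179 and 167 Cited1 at 88.1 and 103, Wnt4 at 132 and 114, Lhx1 at 109 and 115, Pax8 at 58.8 and 67.5, Jag1 at 63.1 and 56.7 and Ccnd1 at 257 and 232.

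UMIs were summed over 4 sets of barcodes in each library and tested with edgeR 4.0.16 (TMM, filterByExpr, quasi-likelihood, library as a block; 3 residual degrees of freedom, common dispersion 0.00506). The numbers pair sets of 1 library: deviations of its sets from the set means correlated at 0.24 to 0.36. On simulated data (13754 genes), 40.9%, 92.2% and 98.6% of log2 changes of 0.5, 1 and 2 were recovered between members and non-dividing progenitors, and 6.06%, 56.3% and 85.7% in the test against stroma. Replicate numbers follow accession order. Counting intervals cover counting error only. Alternatives were DESeq2 1.42.0, other limits, thinning, doublet removal and leaving out a library; 5 settings were chosen after seeing the data.

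The members and gene lists were chosen with earlier results of these data known. Named genes were up to 4 per list with the largest change past the threshold, and the 10 largest and 10 smallest overall among genes of at least 20 CPM in either set; other list genes were named after their values were seen. Against stroma, all list genes past the threshold are counted and up to 2 per list, plus the 5 largest and 5 smallest, are given below as differing between lineages. Sequences and promoters were not analysed here, and a few genes that the rule names are not reported.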

Additional observations from a re-analysis of the deposited data

Results flagged for a closer look

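Each gene here differed between progenitors and stroma in its log2 fold change of dividing against non-dividing cells, by edgeR's quasi-likelihood test of that difference; values are the progenitor minus the stromal log2 fold change.

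The largest positive differences were of Cxcl14 (4.63, edgeR adjusted p = 9.0e-04), the retinol carrier gene Rbp4 (4.28), the matrix gene Fbln2 (4.23), Wnt11 of the ureteric tip (4.10) and the chloride channel gene Ano1 (3.74, edgeR adjusted p = 1.4e-04). Cxcl14 stood at 35.6 and 17.8 CPM in members and 6.22 and 1.53 in non-dividing progenitors, against 26.0 and 24.6 in dividing and 81.2 and 99.2 in non-dividing stroma. In the thinned sets its difference was 2.72 (edgeR adjusted p = 0.17) and its change in progenitors 0.61 (edgeR adjusted p = 0.72). Rbp4 rested on 34 UMIs in members and 9 in non-dividing progenitors (ratio 2.54, 1.20 to 6.03). Its change in progenitors did not pass (1.25, edgeR adjusted p = 0.11), it fell in stroma (-3.03), and the difference passed in 10 of 17 alternatives. Without barcodes rich in other markers Wnt11 was at 2.17 and no longer passed (edgeR adjusted p = 0.081).

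The most negative were the neutrophil genes Ngp (-11.44), Stfa1 (-11.23), BC100530 (-10.99), S100a9 (-10.56) and S100a8 (-10.42). Their UMIs lay in few barcodes: 5 non-dividing progenitor barcodes held 98.8% or more of each gene in replicate 1. The stromal side rested on replicate 1 too: dividing stroma held S100a9 at 100.6 and 0.647 CPM in replicates 1 and 2, S100a8 at 61.9 and 0.647, Stfa1 at 34.7 and 0.324, BC100530 at 26.2 and 0.971 and Ngp at 6.62 and 0.324. Without replicate 1 the 5 differences lay between -8.17 (Ngp) and -3.0 (S100a9), with no test.

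Of cap and commitment genes, Crym differed by 1.55, Osr1 by 1.31, Ccnd1 by 3.0, Wnt4 by 2.90, Lef1 by 2.21 and Lhx1 by 1.18, and of Notch genes Jag1 by 1.14 and Notch1 by 1.03. Osr1 passed in 10 of 17 alternatives, Lhx1 and Notch1 in 12 and Jag1 in 15. The change of Osr1 in progenitors did not pass (edgeR adjusted p = 0.060). Of growth and G1 genes, H19 differed by 1.83, Igf2 by 1.43, Cdk6 by 1.51 and Ccnd2 by 1.04. Of the stress-inducible pair Gadd45a was at -1.70, which passed in 9 of 17 alternatives and changed sign in 2, and Gadd45g at 1.49, which passed in 13. Of immediate early genes Ier3 was at -2.72, which passed in 6 of 17 and changed sign in 1, and Klf4 at 1.70, which passed in 9. The glycolysis genes Hk1 (-0.65) and Gpi1 (-0.37) passed in only 8 and 3 of 17 alternatives, with adjusted p up to 0.91 and 0.90 (edgeR or DESeq2). These cell cycle, chromatin and repair genes had the smaller log2 fold change in progenitors: Rrm1 by -1.38, Ccne2 by -1.29, Hmmr by -2.14, Spc25 by -1.84, Lmnb2 by -1.38, Ncapd2 by -1.34, Arl6ip1 by -1.12, Brca1 by -2.09 and Exo1 by -1.62. Hmmr passed in 9 of 17 alternatives, Ccne2, Ncapd2 and Exo1 in 11, and Lmnb2 and Brca1 in 12. None of 15 tested DNA damage genes passed in the thinned sets or at 10000 to 40000 UMIs. The part of the rule's minimum in the shallower stroma was not tested for these genes either. The log2 fold change was larger in progenitors for Cdk1, by 0.50 (edgeR adjusted p = 0.038), and Tuba1a, by 1.47. The difference of Ccnd1, Wnt4, H19, Igf2, Tuba1a, Rrm1, Spc25, Arl6ip1, Fbln2 and Ano1 passed in each alternative that gave a test.

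The matrices also carry a row for EYFP, a fluorescent reporter whose use the labels do not describe. Members held 177 EYFP UMIs in replicate 1 and 97 in replicate 2, or 9.48 and 8.33 CPM, in 18.1% and 14.2% of barcodes. Non-dividing progenitors stood at 15.1 and 11.2 CPM (8.49% and 7.31% of barcodes, at lower depth), and dividing stroma at 366 and 340 CPM (95.5% and 94.0%).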

How the results depend on the processing

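Members are deeper than their comparison, 2 libraries leave few degrees of freedom, and no control was analysed. The share of dividing progenitors, 23.9% as the mean of both libraries, was 35.4% at a mitochondrial limit of 5%, 29.1% with 1 UMI of Mki67 and Top2a, 15.6% at up to 40000 UMIs, 17.6% at 10000 to 40000, 15.4% there in Cited1-positive barcodes, 18.9% thinned to 10000 and 12.8% thinned to 5000. The number of members was 188 at the mitochondrial limit of 5%, 309 at up to 40000 UMIs, 304 at 10000 to 40000, 200 there with Cited1, and 346 and 199 in the thinned sets, and 239 to 321 with a library left out (share 20.7% to 27.1%). Genes called between members and non-dividing progenitors (3413) numbered 1824 with DESeq2, 1917 in Cited1-positive barcodes of 10000 to 40000 UMIs, 1969 in all barcodes of that window thinned, 2233 and 1847 in full-depth sets thinned to 10000 and 5000, 1633 in thinned sets and 2369 without the replicate block (1415 higher, 954 lower). Against stroma (1208) they numbered 694 with DESeq2, 520 at the mitochondrial limit of 5%, 1880 without a filter, 609 at 10000 to 40000 UMIs, 576 there with Cited1, 458 there thinned, 576 (410 higher, 166 lower) and 620 (382 and 238) in full-depth sets thinned to 10000 and 5000, 355 in thinned sets and 668 without the replicate block. The block removed the call of Meox1, Junb and, against stroma, of Osr1, Klf4, Gpi1 and Ngp when it was left out; other named genes kept their side. Log2 fold changes turned sign for E2f4 (-0.080) and Etv5 (-0.19) in thinned sets, Etv5 (-0.066) in the thinned window, Atf3 with 3 Six2 UMIs (0.16) and in the Cited1-positive window (0.14), Junb with 3 Six2 UMIs (0.019), and Hba-a1 in the window (0.22), thinned (0.22) and Cited1-positive (1.62). Against stroma Lhx1 turned to -0.70 at the mitochondrial limit of 5%, Gadd45a turned to 0.26 and Ier3 to 0.16 in the Cited1-positive window, and Gadd45a to 0.36 in thinned sets. The cause was not tested. Of 1176 values of 64 named genes over the alternatives 1087 kept direction and side of the threshold, 80 lost the call and 9 reversed; against stroma it was 570, 131 and 4 of 705 over 39 genes.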
